A study of Mus musculus with 5 samples.

Results

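Platelet-derived growth factors (PDGFs) signal from 4 ligand genes, Pdgfa, Pdgfb, Pdgfc and Pdgfd, to 2 receptor tyrosine kinases encoded by Pdgfra and Pdgfrb. Pdgfrl encodes a protein that resembles the extracellular part of these receptors. All 7 genes were found by symbol among the 23478 rows of the count table, and all 7 had enough reads to be tested, with 125 to 23745 counts in a library. They were examined in 5 RNA-Seq libraries of GFP-sorted mouse lung cells from P6. The 2 control libraries came from Igf1r Flox/Wildtype pups and the 3 mutant libraries, in which Igf1r was to be deleted, from Igf1r Flox/Flox pups. Both genotypes carried Gli1creER and the Rosa-EGFP reporter, and both received 100 µg of tamoxifen per pup on P0 and again on P1, so controls could lose 1 copy of Igf1r in the same cells.

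PDGF ligands act as dimers that bring 2 receptor chains together. PDGF-A binds PDGFRα, PDGF-B binds both receptors, PDGF-C acts mainly through PDGFRα, and PDGF-D acts mainly through PDGFRβ. In the alveolar lung, epithelial PDGF-A is known to act on PDGFRα-expressing fibroblasts that become the myofibroblasts of the growing septa, and endothelial PDGF-B is known to recruit PDGFRβ-expressing pericytes. The reporter marks cells in which Gli1-driven Cre was active and their descendants. Pups of either sex on a mixed background entered the study, and the sex and the number of pups behind each library are not given in the sources used here. Nothing there says that the libraries of a genotype are separate animals, so the p-values measure the spread between these libraries only.

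Libraries held 35116766 to 37597857 counts. Igf1r, the deleted gene, had 324 and 324 CPM (counts per 1000000, with TMM factors for library composition) in control replicates 1 and 2 and 140, 177 and 194 CPM in mutant replicates 1, 2 and 3, and its adjusted p was 0.354 with edgeR and 1.06e-05 with DESeq2. The 8 fibroblast markers summed to 32960 to 42543 CPM. Markers of cells outside the labelled fibroblasts were present, with sums of 489 to 1107 CPM for 10 epithelial, 276 to 769 CPM for 10 endothelial, 210 to 573 CPM for 10 hematopoietic and 8.15 to 22.6 CPM for 5 platelet markers, and none of these was at 0 in every library. Across all 15298 genes tested, 0 had an adjusted p under 0.05 with edgeR's quasi-likelihood test, or 0%, and the same was true of limma voom. At an unadjusted p under 0.05 edgeR counted 1897 genes, or 12.4% (6.75% lower and 5.65% higher in mutants), and DESeq2 gave 200 adjusted calls, or 1.70% of the genes it adjusted.

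None of the 7 PDGF genes passed the test of mutants against controls. In edgeR's quasi-likelihood fit, 0 of 7 had an adjusted p under 0.05 and 0 of 7 an unadjusted p under 0.05, where 12.4% of all genes passed the unadjusted threshold, and DESeq2 and limma voom also called 0. The libraries of the genotypes overlapped for all 7, whereas 31.0% of all genes tested had no overlap. The median log2 fold change of the 7 was 0.085, against 0.015 over all genes tested, with 3 lower and 4 higher in mutants. A p above the threshold does not show equal levels, and the 95% intervals of the differences are therefore given with each gene.

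Levels of different genes were compared as CPM per kilobase (kb) of exon, using merged exon lengths of the mm10 annotation. Receptor genes were far more abundant than ligand genes in these cells. Pdgfra led with a mean of 55.6 CPM per kb over the 5 libraries (47.9 to 68.2), above 95.4% of 15163 genes with a length. Pdgfrb followed with 32.7 CPM per kb (28.7 to 38.9), and Pdgfrl with 20.8 CPM per kb (17.6 to 22.8). Each of these 3 genes lay above the next in 5 of 5 libraries without overlap of their ranges. The most abundant ligand gene, Pdgfb, had 5.17 CPM per kb (2.64 to 8.47), so the lowest Pdgfrl library was still 2.07 times the highest Pdgfb library. Pdgfa had 4.60 CPM per kb (4.11 to 5.86) and was below Pdgfb in 3 of 5 libraries, so the order of this pair was not resolved. Pdgfd had 1.75 CPM per kb (1.14 to 2.11) and Pdgfc 1.39 CPM per kb (1.07 to 1.83), a pair whose ranges also overlapped. Pdgfd exceeded Pdgfc in 4 of 5 libraries. The sum of both kinase receptor genes was 5.50 to 9.53 times that of the 4 ligand genes in a library.

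**Figure D1:**
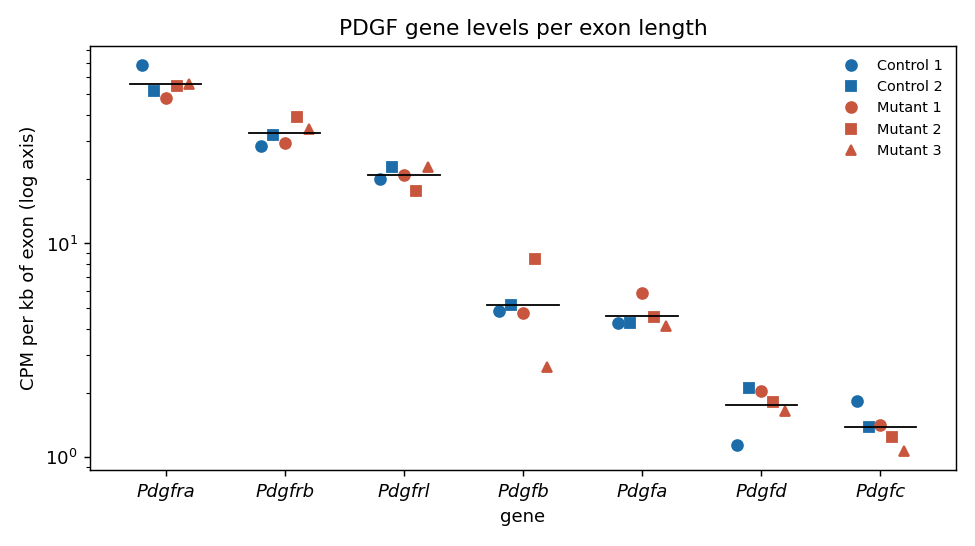
Levels of the 7 PDGF genes in CPM per kb of exon on a log axis, with 1 point for each library and a black line at the mean of the 5 libraries. The 3 receptor genes, with means of 55.6, 32.7 and 20.8 CPM per kb, lie above all ligand genes, and the Pdgfb points spread the most, from 2.64 to 8.47 CPM per kb.

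The start regions of the family differ in composition. RefSeq's table of promoters (GRCm38.p6, the assembly of mm10) held 5 start sites for 4 of the 7 genes, Pdgfa, Pdgfc, Pdgfd and Pdgfra. Of these, 3 windows of 250 bases upstream of a start site are shown, that of the leading receptor gene Pdgfra (chr5:75152001-75152250, plus strand), that of Pdgfa (chr5:138994945-138995194, minus strand), the richest in CpG, and that of Pdgfd (chr9:6168236-6168485, plus strand), the one with a TATA match. Capitals mark letter matches to the GC box (GGGCGG on either strand) and the TATA box (TATAAA on either strand).
Pdgfra: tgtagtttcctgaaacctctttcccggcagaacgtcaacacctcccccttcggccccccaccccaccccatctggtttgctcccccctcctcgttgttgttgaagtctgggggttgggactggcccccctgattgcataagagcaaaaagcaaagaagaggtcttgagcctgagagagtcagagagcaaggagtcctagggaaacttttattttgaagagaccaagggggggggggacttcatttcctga
Pdgfa: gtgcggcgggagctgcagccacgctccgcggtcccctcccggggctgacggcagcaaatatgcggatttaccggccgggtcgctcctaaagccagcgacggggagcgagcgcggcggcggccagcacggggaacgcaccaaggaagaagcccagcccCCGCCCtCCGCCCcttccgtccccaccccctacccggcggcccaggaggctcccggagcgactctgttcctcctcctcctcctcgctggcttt
Pdgfd: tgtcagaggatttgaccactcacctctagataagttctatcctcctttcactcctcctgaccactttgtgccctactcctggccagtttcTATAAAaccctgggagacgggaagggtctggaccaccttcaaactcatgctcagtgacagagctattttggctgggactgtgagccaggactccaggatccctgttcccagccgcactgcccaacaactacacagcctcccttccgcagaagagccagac

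The Pdgfa window was 72.4% G and C with 28 CpG dinucleotides, more than 92.4% of 32841 promoter windows of that length. It held 2 neighbouring GC boxes that did not overlap, a motif found in 32.7% of all windows. The other Pdgfa start site held 1 GC box and 19 CpG. The windows of Pdgfra, Pdgfc and Pdgfd held only 4, 3 and 3 CpG and no GC box, where the median of all windows was 6 CpG. Pdgfd had 1 match to the letters TATAAA, present in 12.4% of windows. The match lay nearer the upstream end of the window than the start site and was not tested as a working TATA box. The FOXO core GTAAACA (3.17% of windows) and the GLI motif GACCACCCA (0.225% of windows) were searched on both strands and neither was found in the 5 windows, which says only that these letters are not there.

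Pdgfra, the receptor gene that marks alveolar myofibroblast precursors and many other lung fibroblasts, spans 75152292 to 75198215 of chromosome 5 (plus strand, mm10, as for the positions that follow). It had 684 and 516 CPM in control replicates 1 and 2 and 480, 547 and 560 CPM in mutant replicates 1, 2 and 3. Control replicate 1 was the highest library, and control replicate 2 lay within the mutant range. Between genotypes the log2 fold change was −0.18, with a standard error of 0.15 and a 95% interval from −0.53 to 0.17 (adjusted p = 0.625, edgeR's quasi-likelihood test). Its sign rested on 1 library, since it was 0.03 without control replicate 1, and −0.38 when control replicate 2 was dropped instead. In the latter fit Pdgfra was the 1 PDGF gene with an unadjusted p under 0.05 (adjusted p = 0.305 in that edgeR fit). Exons of other annotated genes covered 6.50% of its exon length.

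Pdgfrb, the receptor gene of pericytes and other mural cells, spans 61045150 to 61085061 of chromosome 18 (plus strand) and shares no exon bases with another gene. It had 157 and 176 CPM among controls and 162, 213 and 188 CPM among mutants. The mutant libraries reached higher, but replicate 1 lay between the controls. The log2 fold change of 0.17 (standard error 0.14, 95% interval −0.15 to 0.49) had an adjusted p of 0.620 in edgeR's quasi-likelihood test and stayed positive with each library left out, from 0.06 to 0.26. The 12 pericyte markers summed to 1067 and 1394 CPM among controls and 1321, 1278 and 1152 CPM among mutants, and none was at 0 in every library. Postn, the most abundant of them at 473 to 653 CPM, made up the largest part of this sum. By log2 fold change 6 were lower and 6 higher, with a median of −0.0042, which ran from −0.25 to 0.17 with 1 library left out. At an unadjusted p under 0.05 in edgeR's test, 2 of 12 were lower and 0 higher. That was 16.7% lower, against 6.75% lower and 5.65% higher of all genes. The count of 2 was 1 without mutant replicate 2 and 1 without mutant replicate 3, fits whose share of all genes is not given here. In bulk samples fewer cells of a type and less RNA per cell cannot be told apart.

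Pdgfrl spans 40926212 to 40990785 of chromosome 8 (plus strand), and its fitted difference was the smallest of the family in size. Its level was 62.6 and 70.9 CPM among controls against 65.6, 54.9 and 71.2 CPM among mutants, so its lowest and highest libraries were both mutant. The log2 fold change was −0.06 (standard error 0.13, 95% interval −0.38 to 0.25, adjusted p = 0.858 in edgeR's quasi-likelihood test). It was 0.0074 with library totals in place of TMM, so its direction changed with the scaling.

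Pdgfa, which encodes the ligand that acts on PDGFRα alone, spans 138976014 to 138997370 of chromosome 5 (minus strand). It had 13.2 and 13.3 CPM among controls and 18.3, 14.1 and 12.8 CPM among mutants. Mutant replicate 1 was the highest library, mutant replicate 2 lay just above the controls and mutant replicate 3 just below both. The log2 fold change of 0.19 (standard error 0.18, 95% interval −0.22 to 0.60) had an adjusted p of 0.672 in edgeR's quasi-likelihood test and was 0.02 without mutant replicate 1. The exons of an antisense gene, 6330403L08Rik, cover 26.1% of the exon length of Pdgfa, and the use of strand in counting is not given in the sources used here, so reads of the 2 genes cannot be told apart. The 10 epithelial markers, whose cells are the known source of PDGF-A in the septa, summed to 1086 and 1024 CPM among controls and 727, 1107 and 489 CPM among mutants. Mutant replicate 3 was the lowest library for both Pdgfa and this sum, whereas mutant replicate 1 had the highest Pdgfa and a sum below the controls. The part of epithelial cells in the Pdgfa level was not tested.

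Pdgfb encodes the ligand of both receptors and spans 79995874 to 80014977 of chromosome 15 (minus strand). It varied more between libraries than any other member. Its level was 20.1 and 21.4 CPM in the controls but 19.8, 35.2 and 11.0 CPM in mutant replicates 1, 2 and 3. Counting error does not span this range, since the exact 95% Poisson intervals were 33.4 to 37.1 CPM in replicate 2 and 9.91 to 12.1 CPM in replicate 3. The controls sat together in the middle of the mutant range. The dispersion that edgeR gave Pdgfb was above that of 98.8% of the 2231 tested genes within 0.5 log2 units of its level, against 54.8% to 77.7% for the other 6 members. The log2 fold change was 0.08 (standard error 0.41, 95% interval −0.88 to 1.05, adjusted p = 0.944 in edgeR's quasi-likelihood test), and it was −0.44 without mutant replicate 2 and 0.40 without mutant replicate 3.

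The level of Pdgfb moved with the summed level of endothelial markers. The 10 markers summed to 548 and 536 CPM among controls and 500, 769 and 276 CPM in mutant replicates 1, 2 and 3, so the same 2 libraries were highest and lowest. Cdh5, which encodes VE-cadherin and was the most abundant of the 10, had 152 and 144 CPM against 135, 206 and 58.4 CPM. Cldn5, a tight junction gene of endothelium, had 105 and 97.0 CPM against 103, 177 and 52.6 CPM. Not all markers varied as much. Tek had 50.5 and 47.8 CPM against 41.5, 49.4 and 33 CPM, so its highest library was control replicate 1. Taken as a percentage of the summed endothelial markers, Pdgfb was at 3.67% and 3.99% in the controls and 3.95%, 4.58% and 3.98% in the mutant libraries. Its highest library was thus 1.25 times its lowest on that scale, against 3.21 times in CPM. The same ratio of highest to lowest was 1.72 against the epithelial sum, 2.95 against the hematopoietic sum, 2.89 against the pericyte sum and 3.94 against the platelet sum. This comparison was chosen after the values were seen. How much of the Pdgfb level came from endothelial cells among the GFP-sorted cells was not tested.

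**Figure D2:**
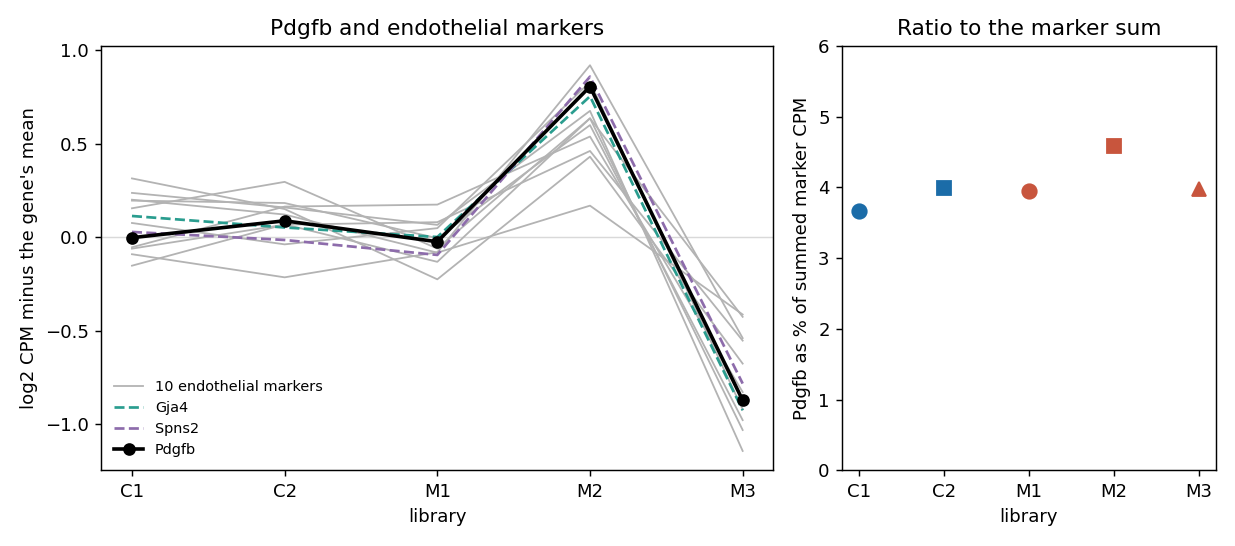
Left, log2 CPM of Pdgfb (black), Gja4 and Spns2 (dashed) and the 10 endothelial markers (grey) in each library, minus each gene's mean over the 5 libraries. Lines only join the values of a gene, and C and M stand for control and mutant. Right, Pdgfb as a percentage of the summed CPM of the endothelial markers, which ran from 3.67% to 4.58%.

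Pdgfc and Pdgfd, the ligands that carry a CUB domain and need proteolytic cleavage to become active, were the least abundant. Pdgfc spans 81036416 to 81214040 of chromosome 3 (plus strand). It had 9.33 and 7.07 CPM among controls and 7.20, 6.36 and 5.43 CPM among mutants. Mutant replicate 1 exceeded control replicate 2 by less than the counting error (exact 95% Poisson intervals 6.34 to 8.14 and 6.23 to 7.98 CPM), and that pair was the only overlap. The log2 fold change of −0.37 (standard error 0.21, 95% interval −0.86 to 0.12) was the largest of the family in size, with an adjusted p of 0.482 in edgeR's quasi-likelihood test. It was negative under every alternative and with each library left out, from −0.57 to −0.16. Pdgfd spans 6168584 to 6378850 of chromosome 9 (plus strand) and had 3.60 and 6.66 CPM among controls and 6.43, 5.71 and 5.20 CPM among mutants. Control replicate 1 was the low library, and the mutant libraries lay between the controls. The log2 fold change of 0.17 (standard error 0.29, 95% interval −0.50 to 0.84, adjusted p = 0.816 in edgeR's quasi-likelihood test) was −0.21 when control replicate 1 was dropped and 0.67 without control replicate 2.

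**Figure D3:**
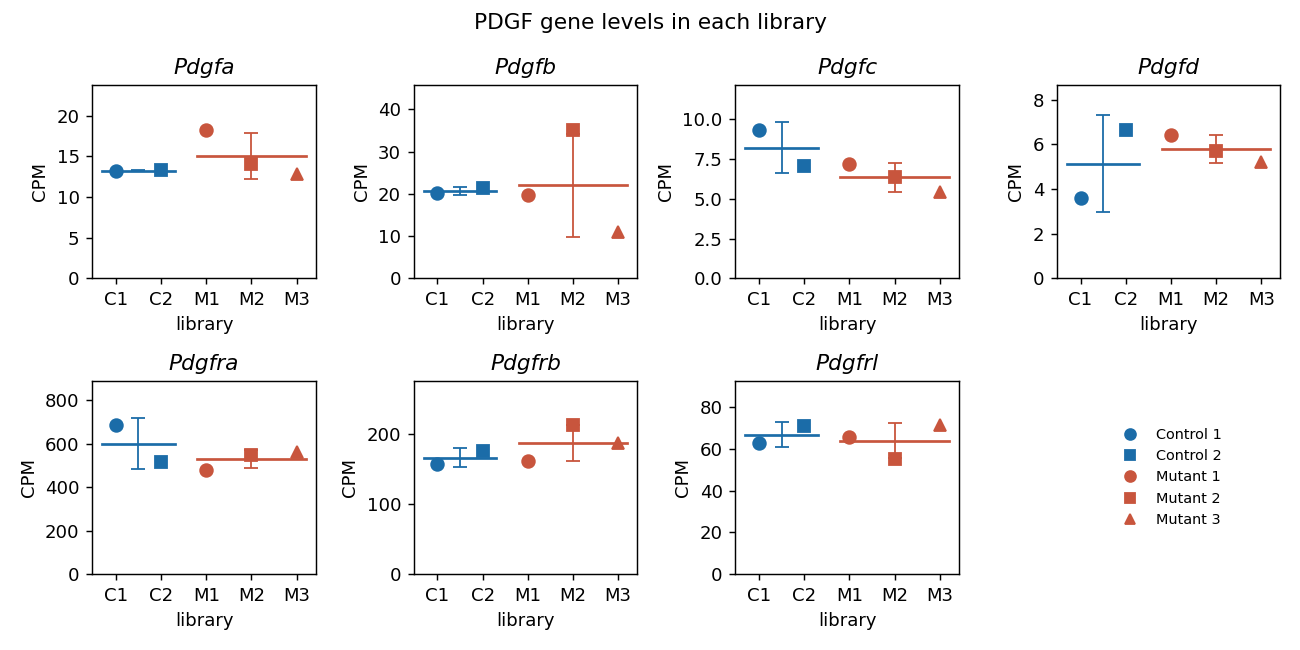
CPM of the 7 PDGF genes in each library, with lines at the genotype means and bars of 1 SD (n = 2 controls, n = 3 mutants). C1, C2 and M1 to M3 are the control and mutant replicates. Control replicate 1 has the highest Pdgfra (684 CPM) and Pdgfc (9.33 CPM) and the lowest Pdgfd (3.60 CPM), and the Pdgfb values of the mutant libraries run from 11.0 to 35.2 CPM.

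Ratios within a library do not depend on its scaling. The ratio of Pdgfra to Pdgfrb per kb was 2.38 and 1.60 in the controls and 1.62, 1.40 and 1.63 in the mutant libraries. Control replicate 1 stood apart, and control replicate 2 lay among the mutant libraries. The mean log2 ratio was 0.97 ± 0.404 (SD, n = 2) in controls and 0.63 ± 0.124 (SD, n = 3) in mutant libraries, a difference of −0.33 (p = 0.3, two-sided exact permutation test over 10 splits, which cannot give a p below 0.1). Without control replicate 1 the difference was −0.049. Control replicate 1 also stood apart in the ratio of Pdgfc to Pdgfd, at 1.61 against 0.658 in control replicate 2 and 0.693, 0.691 and 0.646 in the mutant libraries. This pair was singled out after its values were seen, and no test was made. The ratio of Pdgfa to the sum of the other 3 ligand genes was 0.543 and 0.492 in the controls and 0.714, 0.393 and 0.769 in the mutant libraries, which therefore lay on both sides of the controls. The mean log2 ratios differed by 0.22 (−0.95 ± 0.101, SD, n = 2, against −0.74 ± 0.531, SD, n = 3, with p = 0.6 in the same exact permutation test), and by 0.036 without mutant replicate 3.

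**Figure D4:**
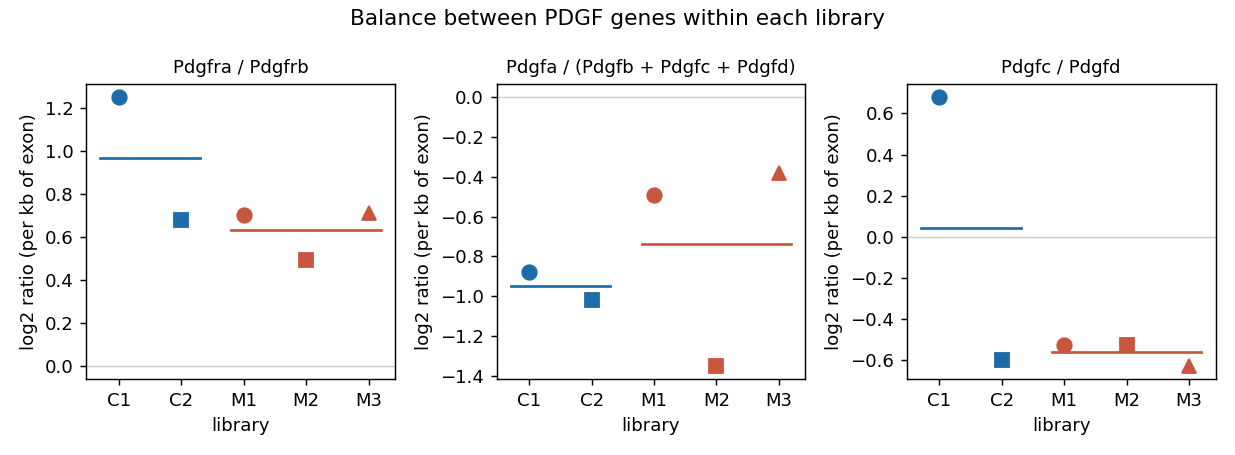
Log2 ratios, per kb of exon, of Pdgfra to Pdgfrb, of Pdgfa to the sum of the other ligand genes and of Pdgfc to Pdgfd in each library, with lines at the genotype means. Control replicate 1 (C1) lies above the other 4 libraries in the first and last panels, at 1.25 and 0.68, and the mutant libraries lie on both sides of the controls in the middle panel.

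For each member, the genes with the most similar profile were sought among 9101 tested genes with a mean of at least 10 CPM. The measure was the root mean square difference between centred log2 CPM over the 5 libraries, and it is a description of 5 libraries from 1 experiment. Gja4, which encodes the endothelial connexin 37, was nearest to Pdgfb (0.0608, where the profile of Pdgfb itself has a size of 0.533), with 12.0 and 11.5 CPM among controls and 11.1, 18.7 and 5.84 CPM among mutants. Spns2, a sphingosine 1-phosphate transporter gene, came next at 0.0757. The nearest genes were Arhgap24 (0.0353) and R3hcc1l (0.0386) for Pdgfra, Arhgap33 (0.0118) and Cnot6 (0.0278) for Pdgfrb, and Cyb561a3 (0.0248) and Mzt1 (0.0284) for Pdgfrl. They were Mlx (0.0294) and Mcm4 (0.0415) for Pdgfa, Ecm1 (0.0319) and Trf (0.0322) for Pdgfc, and Zbtb12 (0.0438) and Plxna3 (0.0824) for Pdgfd.

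Of 63 further genes of the PDGF pathway, 42 had lower and 21 higher fitted values in mutants (median −0.068 on the log2 scale). With edgeR's quasi-likelihood test 0 of the 63 had an adjusted p under 0.05. At an unadjusted p under 0.05 there were 6 lower and 0 higher, or 9.52% lower against 6.75% of all genes. In either direction the shares were 9.52% and 12.4%. DESeq2's Wald test gave 2 adjusted calls, Pik3r1 and Lrp1, where 1.70% of all genes it adjusted were called, and limma voom gave 0. The genotypes did not overlap for 16 of the 63, or 25.4%, below the 31.0% of all genes. The count of 6 depended on single libraries. Fits without a control leave 1 control, so no count is given for them. The count was 3 lower and 0 higher without mutant replicate 3. It was 11 lower and 2 higher without mutant replicate 1. The share of all genes that passed in these fits is not given here, so the shifts cannot be read as particular to the pathway genes.

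The proteases that cut PDGF precursors gave 6 lower and 1 higher of 7 genes (median −0.17), none with an unadjusted p under 0.05 in edgeR's test. Furin, a proprotein convertase, was the most abundant at 316 and 289 CPM among controls and 290, 289 and 284 CPM among mutants. Plau, which encodes urokinase, a protease that can cleave PDGF-D, was the least abundant with 2.39 to 4.70 CPM. Among 5 genes of the VEGF family, relatives of the PDGF ligands, 0 passed the unadjusted threshold. Vegfd (listed as Figf) led them with 255 and 345 CPM against 373, 275 and 327 CPM, and Pgf had the lowest values, 8.32 to 11.5 CPM.

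Of 4 genes for proteins that bind PDGFs or their receptors, 3 were lower and 1 higher (median −0.33), and Lrp1 and Nrp1 had an unadjusted p under 0.05 with lower means in mutants, 2 of 4 where 6.75% of all genes were lower at that threshold. The median was −0.16 without control replicate 1, and 0 of the 4 passed the unadjusted threshold in edgeR's test without mutant replicate 3. The share of all genes in that last fit is not given here. Lrp1, which encodes an endocytic receptor that associates with PDGFRβ, had 2989 and 2551 CPM among controls and 2203, 1638 and 1627 CPM among mutants. All 3 mutant libraries lay below both controls, with a log2 difference of −0.60 ± 0.18 (standard error, adjusted p = 0.354 with edgeR and 0.0376 with DESeq2), which was −0.49 when control replicate 1 was dropped. Nrp1, the gene of the co-receptor neuropilin 1, had 943 and 532 CPM against 577, 354 and 370 CPM, and its log2 fold change of −0.77 (standard error 0.29, adjusted p = 0.375 in edgeR's test) was −0.30 without control replicate 1. Sparc, a matrix protein gene whose product binds PDGF-B, was the most abundant of the list with 6338 and 6391 CPM against 7104, 5753 and 6470 CPM.

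Among 25 genes of adaptors, kinases and other transducers right below the receptors, 14 were lower and 11 higher (median −0.036, and 0.038 with library totals in place of TMM). Pik3r1 alone had an unadjusted p under 0.05, or 4% of the list against 12.4% of all genes. It encodes the p85α subunit of PI3K that docks on activated PDGF receptors, and it serves IGF1R as well. Its 2 control libraries, at 409 and 277 CPM, both lay above the 3 mutants, at 206, 191 and 199 CPM. The log2 difference of −0.79 had a 95% interval from −1.17 to −0.41 (adjusted p = 0.354 with edgeR and 0.00287 with DESeq2's Wald test) and was −0.49 without control replicate 1. Crk, an adaptor gene, was the most abundant of the list with 260 to 277 CPM, and Pik3cb, a catalytic subunit gene of PI3K, the least with 3.20 to 5.83 CPM. Of 13 negative regulators, 8 were lower and 5 higher (median −0.055, and 0.017 with library totals), and 0 had an unadjusted p under 0.05 in edgeR's test. Grb10, an adaptor that also binds IGF1R, was the most abundant at 600 and 556 CPM against 546, 570 and 554 CPM. Grb14 was the least abundant, with 1.09 to 2.16 CPM.

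All 9 genes known to be induced early by PDGF in cultured fibroblasts, which respond to other stimuli and to tissue dissociation as well, had negative log2 fold changes (median −0.44, against 0.015 over all genes). This rested on control replicate 1, without which Ccl2 was at 0.18 and Cxcl1 at 0.66, both chemokine genes. Of the 9 genes, 3 had an unadjusted p under 0.05 and 0 an adjusted p under 0.05 in edgeR's test, or 33.3% lower at the unadjusted threshold against 6.75% of all genes. Markers of some other cell types were lower as well, with 10 of 10 hematopoietic markers below 0 (median −0.70) and 9 of 10 epithelial markers (median −0.39). At an unadjusted p under 0.05 in edgeR's test, 20% and 10% of these 2 lists were lower, against 6.75% of all genes. Without control replicate 1, 8 of 10 hematopoietic markers were lower (median −0.42). Endothelial markers were 5 lower and 5 higher, pericyte markers 6 lower and 6 higher, and 4 of 5 platelet markers were higher. These counts depended on single libraries. Endothelial markers were 10 lower and 0 higher without mutant replicate 2, and 2 lower and 8 higher without mutant replicate 3. Pericyte markers were 10 lower and 2 higher, and 5 lower and 7 higher, in the same 2 fits. Without mutant replicate 1, 4 of 5 platelet markers were lower. The hematopoietic sum was 573 and 397 CPM among controls and 469, 341 and 210 CPM among mutants, with the highest value in control replicate 1. The part of these cells in the early genes was not tested. Myc had 60.1 and 35.7 CPM among controls and 32.4, 20.9 and 22.7 CPM among mutants, a log2 difference of −0.92 ± 0.26 (standard error, adjusted p = 0.354 with edgeR). Fos had 3391 and 2718 CPM against 2244, 2091 and 2433 CPM, a log2 difference of −0.44 ± 0.15 (standard error, adjusted p = 0.357 with edgeR). Ier2 had 1099 and 769 CPM against 623, 647 and 751 CPM. The genotypes did not overlap for these 3 genes, or 33.3% of the list against 31.0% of all genes. In each, control replicate 1 was the highest library, and without it their log2 fold changes were −0.50, −0.27 and −0.20. Egr1 was the most abundant of the list at 2476 to 3891 CPM and Fosl1 the least at 0.101 to 1.41 CPM. The median of the list was −0.22 without control replicate 1, −0.86 without control replicate 2 and −0.85 without mutant replicate 1. The count of 3 was 5, 1 and 2 in edgeR's fits without mutant replicate 1, 2 and 3. The share of all genes that passed in those fits is not given here.

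**Figure D5:**
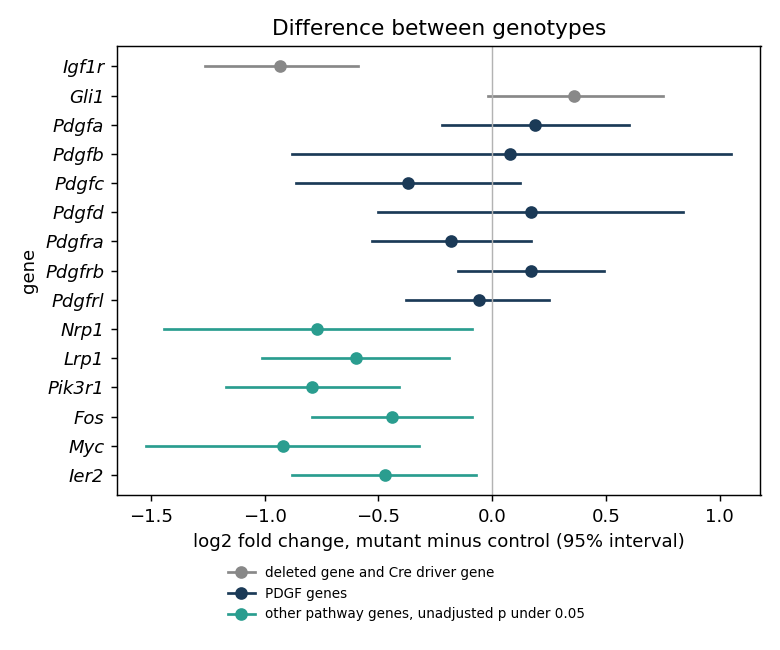
Log2 fold changes (mutant minus control) with 95% intervals from edgeR for Igf1r and Gli1 (grey), the 7 PDGF genes (dark blue) and the other pathway genes with an unadjusted p under 0.05 (green). The intervals of all 7 PDGF genes include 0, with the widest for Pdgfb (−0.88 to 1.05), and those of the 6 green genes lie below 0.

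Gli1, whose locus drives the Cre, had 39.9 and 40.7 CPM among controls and 42.2, 50.8 and 62.7 CPM among mutants, and its 95% interval ran from −0.02 to 0.75 on the log2 scale around 0.36 (adjusted p = 0.413 in edgeR's quasi-likelihood test). The value was 0.20 without mutant replicate 3. The mutants did not overlap the controls, unlike for any PDGF gene, but 16.0% of all genes tested were also higher in mutants without overlap. The 14 myofibroblast markers, Gli1 among them, had a median log2 fold change of 0.43, with 11 higher and 3 lower. In edgeR's test 6 of them were higher and 1 lower at an unadjusted p under 0.05, against 5.65% and 6.75% of all genes, and 0 had an adjusted p under 0.05. The median was 0.25 without control replicate 1, where 1 was higher and 0 lower at that threshold, and 0.72 without control replicate 2. Their summed CPM was 21147 and 15492 among controls and 16952, 14399 and 15187 among mutants, but Eln, the elastin gene and the most abundant of them, made up most of it and had a log2 fold change of −0.41. The 8 fibroblast markers were all lower (median −0.27), where 7301 of all 15298 genes tested were lower. In edgeR's test 1 had an unadjusted p under 0.05, or 12.5% of the list against 6.75% of all genes. The genotypes did not overlap for 12.5% of the list, against 31.0% of all genes. By direction, 7 of 8 were lower without control replicate 2 or without mutant replicate 2.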

How the data were processed

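RNA-Seq was analysed for 5 libraries, 2 control and 3 Igf1r-mutant, grouped by the sample labels. Per the labels and methods, the authors sorted GFP+ cells, made NEBNext Ultra libraries, removed adapters (Trim Galore), mapped reads on mm10 (Bowtie2) and assigned them to genes with a Bioconductor package. The deposited values are raw read counts per gene symbol, without normalization. The annotation, the versions and the use of strand are not given in the sources used here. Bowtie2 aligns without gaps for introns, which can lose reads across exon junctions.

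For the genotype comparison, a two-sided quasi-likelihood F test (edgeR 4.0.16 in R 4.3.3) was run on the 15298 genes that filterByExpr kept, after TMM scaling, and p-values were adjusted over these genes by Benjamini and Hochberg. A prior count of 2 entered the log2 CPM. Merged exon lengths and positions came from GENCODE M21, where 22114 symbols matched directly. Ratios were compared with an exact permutation test. Poisson intervals cover counting error only. Alternatives were DESeq2 1.42.0, limma 3.58.1 voom, other scalings and filters, robust empirical Bayes, a replicate block and leaving out each library. The fit was tested on simulated counts.

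Named were the 7 PDGF genes, Igf1r, Gli1, for each pathway list the most and least abundant gene and up to 5 genes with the smallest p under 0.05, the 2 genes nearest in profile to each member, and defining markers of a cell type. Ccl2, Cxcl1, Eln, Postn and Tek were named after their values were seen. The members and lists were chosen with earlier results of these data known. In the list of transducers 1 gene is not reported here.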

Additional observations from a re-analysis of the deposited data

How the results depend on the processing

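Over the 9 alternatives and the 5 fits without 1 library, 91 of 98 fold changes of the PDGF genes kept their direction and 0 had an adjusted p under 0.05. The 7 that reversed were Pdgfb at −0.059 with limma voom and −0.44 with mutant replicate 2 left out (0.40 with mutant replicate 3 left out), Pdgfd at −0.21 and Pdgfra at 0.029 without control replicate 1 (0.67 and −0.38 without the other control), and Pdgfrl at 0.0074 with library totals and 0.019 or 0.03 when control replicate 2 or mutant replicate 2 was dropped (−0.16 without control replicate 1). The cause was not tested. With 1 library left out, 0 to 1 PDGF genes and 2 to 14 other pathway genes had an unadjusted p under 0.05 in edgeR's test, and 0 to 1 other pathway genes an adjusted p under 0.05. DESeq2's Wald test gave 2 adjusted calls among the other pathway genes, where 1.70% of all genes it adjusted were called. With the replicate number as a block, edgeR gave 1 adjusted and 8 unadjusted calls among them. It gave 0 PDGF genes under 0.05 at either p, so no call on a PDGF gene changed. Replicate 3 exists only as a mutant library, so in that fit the genotype difference rested on replicates 1 and 2. The share of all genes that passed with the block is not given here. Deviations from the genotype means correlated by 0.208 and 0.121 over genes in the 2 pairs of libraries with the same number. They correlated by 0.119 between control replicate 2 and mutant replicate 3, and by −0.208 to −0.119 in the other pairs. The 2 controls deviate in opposite directions by construction, so the numbers were not taken to pair libraries. Library totals moved the median of all genes by 0.073 on the log2 scale. The difference in the log2 ratio of Pdgfra to Pdgfrb ran from −0.62 to −0.049 and that of Pdgfa to the other ligands from 0.036 to 0.52 with 1 library left out. Where an arm then held 1 library, it was assumed to vary like the other arm. The spread of the PDGF genes, whose lowest count was 125, exceeded counting error: the chi-square per degree of freedom of their counts within genotypes, 1 where only counting error acts, was 6.68 to 362.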
